A study of Mus musculus with 8 samples.

Results

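Transcript levels of 39 genes of programmed cell death were followed in mouse embryos on the day after microinjection at the pronuclear stage. The set holds caspases, the Bcl2 family, the mitochondrial proteins released with cytochrome c, the inhibitors of apoptosis and the adaptors of death receptors and necroptosis, and its members were taken by symbol from the 52636 rows of the count table. The symbols matched 40 rows because Bcl2l2 stands on 2 of them. One of these rows, ENSMUSG00000022194, is the gene that GENCODE M21 names Pabpn1, a nuclear poly(A) binding protein, so only ENSMUSG00000089682 was taken as Bcl2l2 and 39 genes remained.

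The study injects zygotes with an antibody and with Trim21 mRNA (the Trim-away method, in which the receptor Trim21 hands antibody-bound protein to the proteasome) to remove the zona pellucida protein ZP3 from inside the cell. All embryos were wild-type and of B6C3F1 x CD1 background. The 3 libraries labelled Trim-away ZP3 came from zygotes given mCherry-Trim21 mRNA at 0.2 mg/ml, oregon green dextran beads at 0.02 mg/ml and an antibody against ZP3 at 1 mg/ml at 15 h after hCG, and their labelled stage is E0.5. The 4 libraries labelled Trim21 overexpression came from zygotes given the same mRNA and beads without the antibody, and their labelled stage is E1.5. RNA of both injected groups was taken at about the same time, some 24 h after injection, when the antibody-injected embryos were still at the 1-cell stage. The single non-manipulated library (E1.5) had no injection. Antibody and stage change together between the injected groups, so an effect of the antibody and a difference between the 1-cell and the 2-cell stage cannot be told apart here. In pooled embryos, fewer live cells and less RNA per cell cannot be told apart either.

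In apoptosis, BH3-only proteins sense damage and set free the pore formers Bax and Bak1, while Bcl2, Mcl1 and their relatives hold these in check. Once the outer mitochondrial membrane opens, cytochrome c joins Apaf1 to activate caspase-9, and this in turn activates the executioner caspases unless inhibitors of apoptosis block them. Death receptors start the same end by another route, through Fadd and caspase-8, and the caspase-8 relative Cflar (c-FLIP) sets whether that route leads to death, to survival signalling or, through Ripk1, Ripk3 and Mlkl, to necroptosis. Before the embryonic genome is active, the zygote draws on transcripts stored in the oocyte.

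Total counts were between 13228428 and 15379933 in the libraries labelled Trim-away, between 17615416 and 22427747 in the Trim21 overexpression libraries and 22248022 in the non-manipulated library. Trim21 itself, which all injected libraries should hold, reached 957 to 8646 CPM in the 4 Trim21 overexpression libraries and 2124 CPM in Trim-away replicate 1, but it had 0 counts in Trim-away replicate 2 and 55 counts (3.53 CPM) in Trim-away replicate 3. Those 2 libraries go against their label, so fold changes are also given without both of them. That fit leaves Trim-away replicate 1 alone in its group, so no calls are taken from it. Trim-away removes protein, so the Zp3 transcript does not check the labels. Of the markers of other cells, 5 of 9 cumulus cell genes (Ptx3, Foxl2, Amh, Fshr and Inha) had 0 counts in all 8 libraries. The cumulus cell genes Cyp19a1 and Tnfaip6 did have counts. Cyp19a1 had 12, 462 and 476 counts in Trim-away replicates 1 to 3 and 0, 0, 0 and 27 in the Trim21 overexpression libraries. Its high counts thus stood in the 2 libraries low in Trim21. Tnfaip6 was 6.01, 18.8 and 14.8 CPM against 20.9, 1.16, 5.38 and 5.22 CPM, so its groups overlapped. The list summed to 7.82 to 48.8 CPM in the libraries labelled Trim-away and 1.16 to 20.98 CPM in the Trim21 overexpression libraries. The 8 sperm genes summed to 99.1 to 185 CPM and 0.465 to 56.7 CPM in the same order, nearly all from Odf2, with Tnp1 and Tnp2 at 0. The 6 oviduct genes summed to 41.8 to 254 CPM and 305 to 370 CPM, and the blood genes to at most 6.22 CPM in any injected library. Most of the oviduct sum came from Epcam, except in Trim-away replicate 1, where Epcam was 5.07 CPM and Krt18 25.6 CPM. Epcam (means 113 and 318 CPM) was lower in the libraries labelled Trim-away and Krt18 (51.1 and 9.10 CPM) higher, both without overlap. Maternal transcripts of the oocyte summed to 4895 to 10287 CPM in the libraries labelled Trim-away against 2653 to 4054 CPM. Of these, Bmp15 (means 2288 and 510 CPM) and Nlrp5 (725 and 235 CPM) were higher without overlap. Oosp1 (516 and 784 CPM) and Zp3 (46.2 and 119 CPM) were lower without overlap, and Gdf9, Mos, Zar1, Npm2 and Btg4 overlapped. Transcripts of the 2-cell stage summed to 1269 to 1488 CPM against 366 to 896 CPM, higher in the group labelled E0.5. Zscan4d (558 and 231 CPM) and Zfp352 (627 and 301 CPM) were higher without overlap, and Zscan4c, Zscan4f, Usp17lc, Tdpoz4 and Gm13119 overlapped. The part of these differences in the results below was not tested.

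Of the 39 genes, 28 passed the filter on low counts and were tested, and 11 were not. CPM is the count scaled to a common library size after TMM, the log2 fold change is Trim-away over Trim21 overexpression, and a gene was called at an adjusted p under 0.05 in edgeR's quasi-likelihood test over all 13641 genes that passed the filter. Cflar, Birc3 and Casp8 were called higher (3 of 28, or 10.7%, where 2.98% of all tested genes were called higher). Bid and Bad were called lower (2 of 28, or 7.14%, where 3.91% of all tested genes were called lower). The other 23 did not pass, and 7 members had an unadjusted p under 0.05 in edgeR (25% of the 28, against 21.3% of all tested genes, a share near the background). The median fitted log2 fold change was -0.20 over the 28 members and -0.04 over all tested genes. Of the 5 called members, Casp8, Bid and Bad passed the filter only through the group in which they are high, so these counts are a description of the members. In 4 members every library labelled Trim-away lay above every Trim21 overexpression library (14.3%, against 13.1% of all tested genes), and in 6 every one lay below (21.4%, against 15.5%), shares not far from those of all genes.

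**Figure D1:**
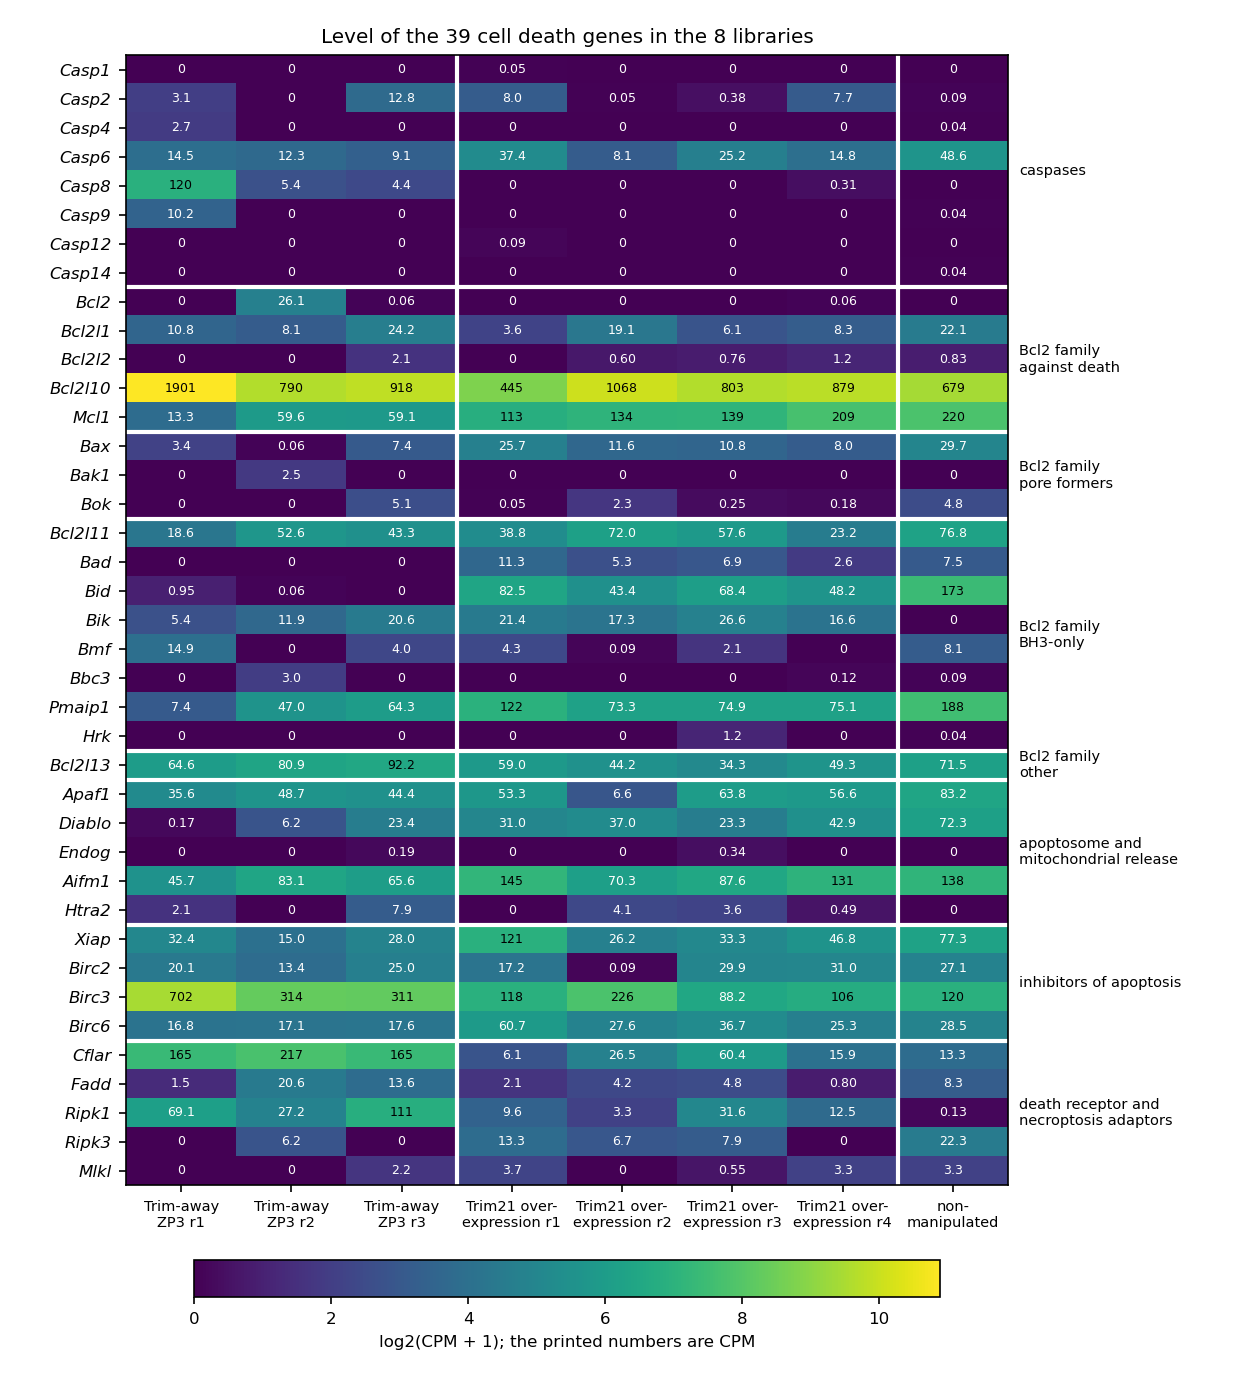
Levels of the 39 genes (rows, grouped by role) in the 8 libraries (columns). Colour is log2(CPM + 1) and the printed numbers are CPM, with a bare 0 for no counts. Bcl2l10 is the brightest row in every library at 445 to 1901 CPM, Cflar and Birc3 are brighter in the 3 columns labelled Trim-away, and Bid is near 0 there.

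The promoters of the 5 called genes are shown because these genes moved in the same comparison. They are RefSeq windows on GRCm38.p6 from 250 bases before to 50 bases after the start of the gene, on the strand of the gene. Capitals mark matches on either strand to GGGNNNNNCC (the frame of NF-kB sites), TATAAA or CCAAT. The window of Casp8 rests on a RefSeq start 7128 bases from the GENCODE start of the gene, and those of the others lie within 29 bases of it.
Cflar, chr1:58711241-58711540, plus strand: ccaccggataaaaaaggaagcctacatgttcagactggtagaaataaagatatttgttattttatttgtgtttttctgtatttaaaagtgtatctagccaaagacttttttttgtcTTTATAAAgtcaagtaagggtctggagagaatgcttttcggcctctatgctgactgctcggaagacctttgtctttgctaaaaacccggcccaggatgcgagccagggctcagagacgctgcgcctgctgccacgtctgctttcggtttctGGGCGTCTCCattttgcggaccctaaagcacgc
Birc3, chr9:7873121-7873420, minus strand: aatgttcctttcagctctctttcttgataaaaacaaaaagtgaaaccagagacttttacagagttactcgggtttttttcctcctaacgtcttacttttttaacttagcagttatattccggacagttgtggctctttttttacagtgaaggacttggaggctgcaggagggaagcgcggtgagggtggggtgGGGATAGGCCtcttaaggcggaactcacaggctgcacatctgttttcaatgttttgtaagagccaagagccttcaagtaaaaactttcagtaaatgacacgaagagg
Casp8, chr1:58802252-58802551, plus strand: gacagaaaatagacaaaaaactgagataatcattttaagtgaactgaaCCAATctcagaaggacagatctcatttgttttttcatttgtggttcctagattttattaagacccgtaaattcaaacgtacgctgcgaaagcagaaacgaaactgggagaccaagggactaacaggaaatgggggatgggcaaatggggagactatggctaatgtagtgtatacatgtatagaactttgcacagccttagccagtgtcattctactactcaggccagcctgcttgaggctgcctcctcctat
Bid, chr6:120916775-120917074, minus strand: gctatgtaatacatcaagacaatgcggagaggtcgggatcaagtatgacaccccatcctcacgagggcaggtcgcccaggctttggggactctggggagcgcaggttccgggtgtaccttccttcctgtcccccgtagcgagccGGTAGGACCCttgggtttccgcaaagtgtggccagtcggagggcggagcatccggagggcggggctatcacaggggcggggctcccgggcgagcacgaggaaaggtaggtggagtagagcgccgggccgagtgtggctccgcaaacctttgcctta
Bad, chr19:6941611-6941910, plus strand: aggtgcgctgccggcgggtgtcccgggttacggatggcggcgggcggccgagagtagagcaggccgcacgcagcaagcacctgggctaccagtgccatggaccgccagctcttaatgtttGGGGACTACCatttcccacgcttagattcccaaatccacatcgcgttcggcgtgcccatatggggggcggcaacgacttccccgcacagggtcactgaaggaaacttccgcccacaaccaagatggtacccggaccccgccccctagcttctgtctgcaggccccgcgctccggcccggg

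GGGNNNNNCC stood once in each window other than that of Casp8, so it did not separate the genes called higher (Cflar, Birc3) from those called lower (Bid, Bad), and it stood in 51% of the 32544 promoters in the RefSeq table. Cflar was the only one of the 5 with TATAAA, as a pair of overlapping matches on opposite strands, and 13.6% of all promoters held it. Casp8 was the only one with CCAAT, which 37.4% of all promoters held. A match is a description of the letters and not of a bound factor.

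Of the death receptor and necroptosis adaptors, Cflar was called higher and stood at similar levels in the 3 libraries labelled Trim-away. Cflar, which sits with Fadd and caspase-8 on activated death receptors, is a gene of chromosome 1 (58711508 to 58758884). Its level was 165, 217 and 165 CPM in Trim-away replicates 1 to 3. In Trim21 overexpression replicates 1 to 4 it reached 6.14, 26.5, 60.4 and 15.9 CPM, and in the non-manipulated library 13.3 CPM. The 3 libraries labelled Trim-away lay close together and above all others. The means were 182 ± 29.96 CPM (SD, n = 3) and 27.3 ± 23.6 CPM (SD, n = 4), and the log2 fold change was 2.74 (SE 0.66, adjusted p = 0.041). Leaving out Trim21 overexpression replicate 3 kept the call (adjusted p = 0.024), and leaving out any one of the other 6 libraries ended it (adjusted p = 0.052 to 0.116). Without both libraries low in Trim21 the log2 fold change was 2.56, in a fit where the median of all genes was -1.24.

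Ripk1, the kinase that death receptors use to signal either survival or necroptosis, was uneven within both groups. It reached 69.1, 27.2 and 111 CPM in Trim-away replicates 1 to 3. In Trim21 overexpression replicates 1 to 4 it reached 9.63, 3.30, 31.6 and 12.5 CPM, and in the non-manipulated library 0.131 CPM. The groups overlapped, since Trim-away replicate 2 lay below Trim21 overexpression replicate 3. The log2 fold change of 2.28 (SE 0.79, adjusted p = 0.131) did not pass. Fadd, the adaptor that recruits caspase-8, ran from 1.55 to 20.6 CPM in the libraries labelled Trim-away and from 0.799 to 4.79 CPM in the Trim21 overexpression libraries (log2 fold change 2.00, SE 1.26, adjusted p = 0.434). Ripk3 and Mlkl, the kinase and the membrane pore of necroptosis, had 0 counts in 2 of the 3 libraries labelled Trim-away and stayed at or below 13.3 CPM in the injected libraries (adjusted p = 0.770 and 0.827). Summed over the 5 adaptors, the level was 235, 271 and 292 CPM in the libraries labelled Trim-away and 34.8, 40.8, 105 and 32.5 CPM in the Trim21 overexpression libraries, and Cflar gave the largest part of the sum in every library labelled Trim-away.

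Casp8, the initiator caspase of the death receptor route, lies downstream of Cflar on chromosome 1 (58795374 to 58847503). It had 1395, 84 and 68 counts in Trim-away replicates 1 to 3, or 120, 5.45 and 4.37 CPM. In Trim21 overexpression replicates 1 to 4 it had 0, 0, 0 and 5 counts, the last being 0.307 CPM, and the non-manipulated library had none. All 3 libraries labelled Trim-away lay above the others, but 89.9% of all Casp8 counts stood in Trim-away replicate 1. The means were 43.2 ± 66.4 CPM (SD, n = 3) and 0.0768 ± 0.154 CPM (SD, n = 4), and the log2 fold change was 9.14 (SE 2.10, adjusted p = 0.035). The call held without Trim-away replicate 3 (adjusted p = 0.047) and ended without any one of the other 6 libraries (adjusted p = 0.052 to 0.269). Without Trim-away replicate 1 the log2 fold change was 5.92, and without Trim21 overexpression replicate 4 it was 12.6. Without both libraries low in Trim21 it was 10.6, which rests on Trim-away replicate 1 alone, the library with most of the Casp8 counts. In Trim-away replicate 1 the cumulus genes summed to 7.82 CPM (48.8 and 45.4 CPM in replicates 2 and 3). The oviduct genes summed to 41.8 CPM there (225 and 254 CPM), the sperm genes to 99.1 CPM (185 and 179 CPM) and the blood genes to 2.06 CPM (3.96 and 4.11 CPM). The cumulus gene Has2 had 9 counts there and 0 in the other 7 libraries. The oviduct genes Krt18 and Ovgp1 had 298 and 129 counts there, the blood gene Hba-a1 had 21, and the leukocyte gene Ptprc had 0. The part of other cells in the Casp8 counts was not tested.

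The other caspases were low or uneven. Casp6, an executioner caspase, ran from 9.13 to 14.5 CPM in the libraries labelled Trim-away and from 8.09 to 37.4 CPM in the Trim21 overexpression libraries (fitted log2 fold change -0.84, SE 0.78, adjusted p = 0.633). Casp2, an initiator caspase known from the death of mouse oocytes, had between 0 and 12.8 CPM in the first group and between 0.0465 and 7.95 CPM in the second (adjusted p = 0.954). Casp9, the initiator caspase of the apoptosome, was not tested. It had 119 counts in Trim-away replicate 1, 1 count in the non-manipulated library and none in the other 6. Casp4, an inflammatory caspase, had 31 counts in Trim-away replicate 1 and 1 in the non-manipulated library. Casp1, Casp12 and Casp14 had 1, 2 and 1 counts in all 8 libraries together, so their transcripts were not detectable beyond single reads at this depth.

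**Figure D2:**
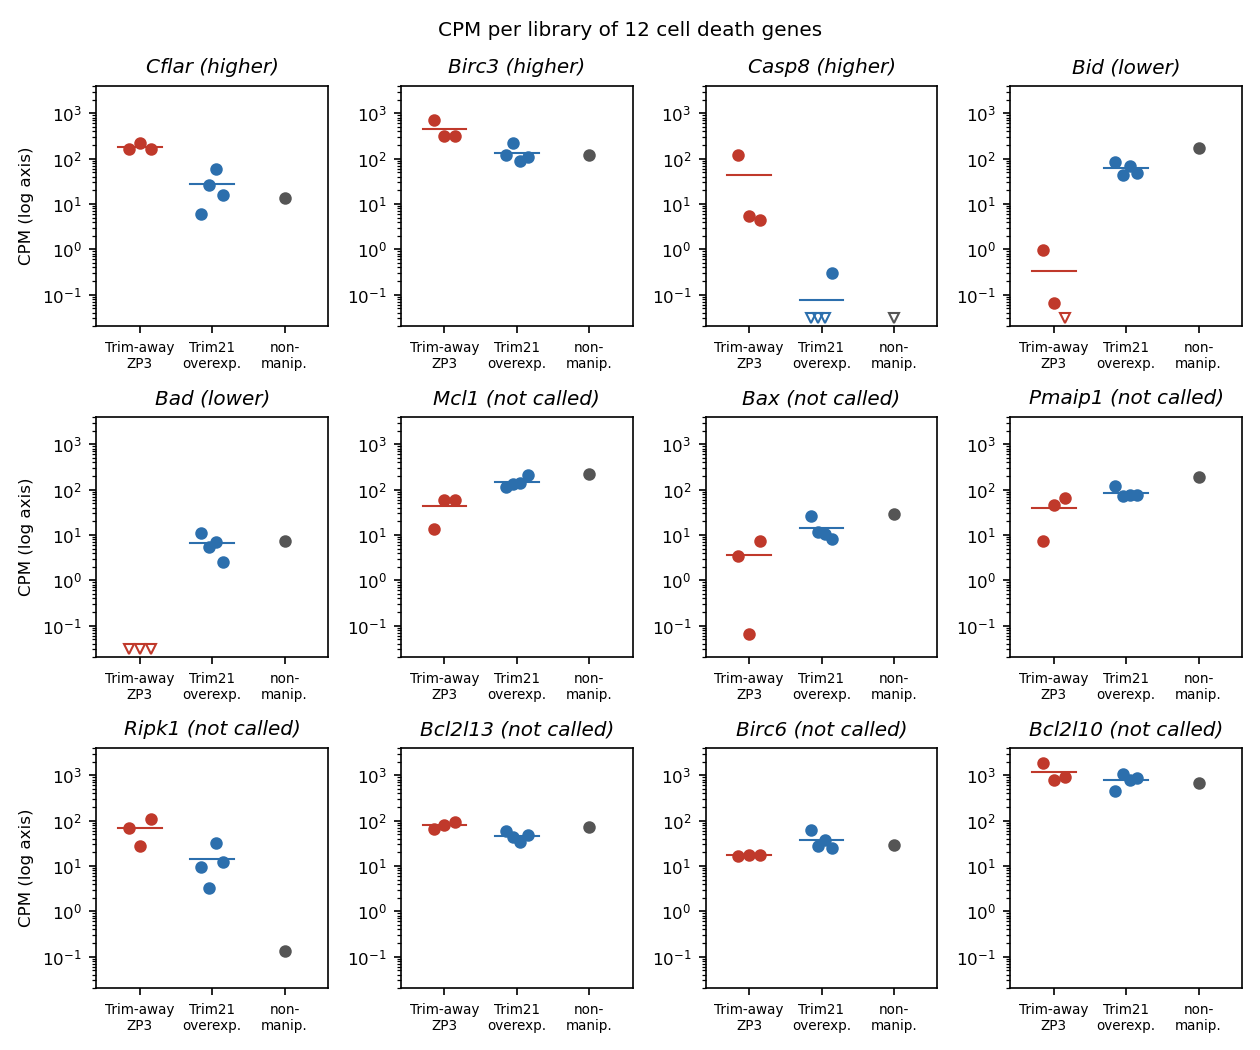
CPM per library (log axis) of 12 members in the libraries labelled Trim-away ZP3 (red, n = 3), Trim21 overexpression (blue, n = 4) and non-manipulated (grey, n = 1). Horizontal lines are group means, and open triangles at the bottom stand for 0 counts. Cflar, Birc3 and Casp8 lie higher in red, Bid and Bad lie lower, and Mcl1, Bax, Pmaip1 and Birc6 have lower red points without passing the test.

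Of the 4 inhibitors of apoptosis, Birc3 was called higher and the other 3 did not pass. Birc3 (c-IAP2), a ubiquitin ligase that acts on Ripk1 below death receptors, is a gene of chromosome 9 (7848699 to 7873186). Its level was 702, 314 and 311 CPM in Trim-away replicates 1 to 3. In Trim21 overexpression replicates 1 to 4 it reached 118, 226, 88.2 and 106 CPM, and in the non-manipulated library 120 CPM. All 3 libraries labelled Trim-away lay above all others, with replicate 1 highest. The means were 442 ± 225 CPM (SD, n = 3) and 134 ± 62.0 CPM (SD, n = 4), and the log2 fold change was 1.72 (SE 0.42, adjusted p = 0.043). The call held without Trim21 overexpression replicate 2 (adjusted p = 0.033) and ended without any one of the other 6 libraries (adjusted p = 0.065 to 0.130). Without both libraries low in Trim21 the log2 fold change was 2.35, in the fit where the median of all genes was -1.24.

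Birc2 (c-IAP1), the neighbour and close relative of Birc3 on chromosome 9, was not called. It ran from 13.4 to 25 CPM in the libraries labelled Trim-away and from 0.0930 to 31.0 CPM in the Trim21 overexpression libraries, with means of 19.5 CPM in both (adjusted p = 1.000). The difference between the changes of Birc2 and Birc3 was not tested. Birc6 (BRUCE), a very large inhibitor with a ubiquitin-conjugating domain, was 16.8, 17.1 and 17.6 CPM in Trim-away replicates 1 to 3. It was 60.7, 27.6, 36.7 and 25.3 CPM in the Trim21 overexpression libraries and 28.5 CPM in the non-manipulated library. The groups did not overlap, the libraries labelled Trim-away being lower and nearly equal, but the log2 fold change of -1.13 (SE 0.56, adjusted p = 0.302) did not pass. Xiap, which binds and blocks caspases directly, was 32.4, 15.0 and 28.02 CPM in the libraries labelled Trim-away. It was 121, 26.2, 33.3 and 46.8 CPM in the Trim21 overexpression libraries and 77.3 CPM in the non-manipulated library. The groups overlapped, and the log2 fold change was -1.18 (SE 0.64, adjusted p = 0.355).

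The BH3-only genes held both members that were called lower. Bid, which caspase-8 cuts to carry the death receptor signal to mitochondria, is a gene of chromosome 6 (120891930 to 120916853). It had 11, 1 and 0 counts in Trim-away replicates 1 to 3, or 0.945, 0.0649 and 0 CPM. In Trim21 overexpression replicates 1 to 4 it reached 82.5, 43.4, 68.4 and 48.2 CPM, and in the non-manipulated library 173 CPM. Bid was nearly absent from all 3 libraries labelled Trim-away and present in all others. The means were 0.337 ± 0.528 CPM (SD, n = 3) and 60.6 ± 18.2 CPM (SD, n = 4), and the log2 fold change was -7.53 (SE 1.35, adjusted p = 0.015). Bid passed the filter only through the Trim21 overexpression libraries, and it was the only member that stayed called without each single library in turn (adjusted p = 0.00763 to 0.0496), its log2 fold change being -10.6 without Trim-away replicate 1 and between -7.66 and -6.95 without any other. Without both libraries low in Trim21 it was -6.02, in the fit where the median of all genes was -1.24.

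The last exons of Bid overlap those of Bcl2l13 on the other strand over 628 bases, 17.7% of the exon bases of Bid, and without strand reads from this stretch cannot be assigned to one of the pair. Bcl2l13, an outer mitochondrial membrane protein that acts as a receptor in mitophagy, was 64.6, 80.9 and 92.2 CPM in Trim-away replicates 1 to 3. It was 59.0, 44.2, 34.3 and 49.3 CPM in the Trim21 overexpression libraries and 71.5 CPM in the non-manipulated library. The libraries labelled Trim-away lay above the Trim21 overexpression libraries without overlap, opposite to Bid, but the log2 fold change of 0.76 (SE 0.36, adjusted p = 0.278) did not pass.

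Bad, a BH3-only protein held inactive by growth factor signalling, is a gene of chromosome 19 (6941861 to 6951899). It had 0 counts in all 3 libraries labelled Trim-away, which allows up to 0.258, 0.195 and 0.193 CPM (3 counts) in replicates 1 to 3. In Trim21 overexpression replicates 1 to 4 it reached 11.3, 5.30, 6.85 and 2.58 CPM, and in the non-manipulated library 7.48 CPM. The groups did not overlap (adjusted p = 0.044), and Bad passed the filter only through the Trim21 overexpression libraries. Their mean was 6.51 ± 3.65 CPM (SD, n = 4). Against a floor of 3 counts over the whole group labelled Trim-away, Bad was at least 92.5-fold lower there, a bound that covers counting error only. The call ended without any one of the 7 libraries (adjusted p = 0.069 to 0.105). Without both libraries low in Trim21 the fitted log2 fold change was -9.95, a value that depends on the prior count. Bad shares 524 exon bases with Gpr137 on the other strand.

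Pmaip1 (Noxa), a BH3-only protein that targets Mcl1, was 7.39, 47.0 and 64.3 CPM in Trim-away replicates 1 to 3. It was 122, 73.3, 74.9 and 75.1 CPM in the Trim21 overexpression libraries and 188 CPM in the non-manipulated library. The groups did not overlap, but the log2 fold change of -1.12 (SE 0.65, adjusted p = 0.386) did not pass. Against Trim-away replicate 1 alone it was -3.58, where the median of all genes was -1.24. Bcl2l11 (Bim), which binds all the death-inhibiting relatives, was 18.6, 52.6 and 43.3 CPM in the libraries labelled Trim-away. It was 38.8, 72.0, 57.6 and 23.2 CPM in the Trim21 overexpression libraries and 76.8 CPM in the non-manipulated library, so the groups overlapped (log2 fold change -0.33, adjusted p = 0.819).

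Among the remaining BH3-only genes, Bik ran from 5.41 to 20.6 CPM in the libraries labelled Trim-away and from 16.6 to 26.6 CPM in the Trim21 overexpression libraries (adjusted p = 0.694), and it had 0 counts in the non-manipulated library, which allows up to 0.131 CPM. Bmf, known from cells that lose attachment, ran from 0 to 14.9 CPM and from 0 to 4.33 CPM (adjusted p = 0.712). Bbc3 (Puma), a target of p53, had 46 of its 50 counts in Trim-away replicate 2, and Hrk had 28 of its 29 counts in Trim21 overexpression replicate 3, and neither was tested. Summed over the 8 BH3-only genes, the level was 47.3, 115 and 132 CPM in the libraries labelled Trim-away, below the 280, 211, 238 and 166 CPM of the Trim21 overexpression libraries. Bid, already called lower, gave 82.5, 43.4, 68.4 and 48.2 CPM of the latter sums and at most 0.945 CPM of the former. Bcl2l11, Bik and Bmf overlapped between the groups, so the sum does not describe each gene of the class.

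**Figure D3:**
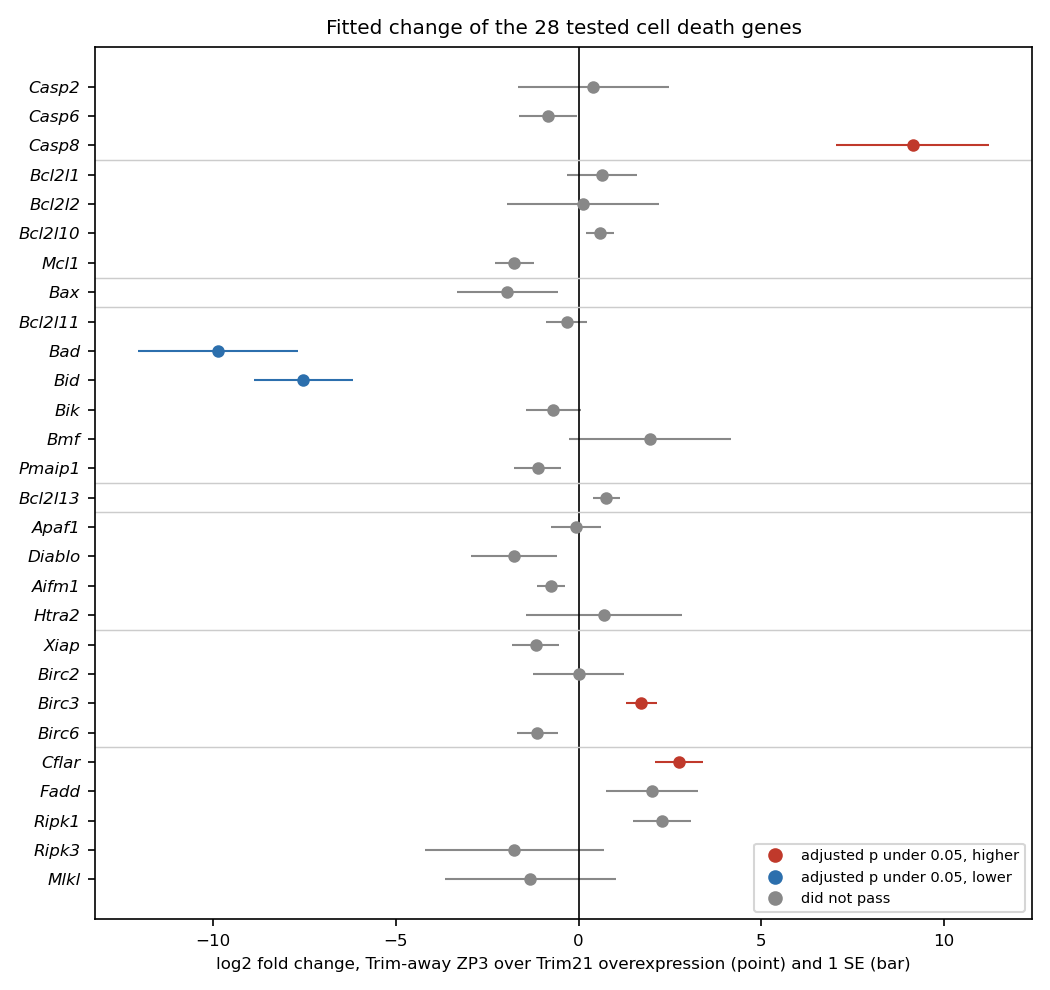
Fitted log2 fold change (points) with 1 SE (bars) of the 28 tested members, Trim-away ZP3 over Trim21 overexpression, ordered by role. Red and blue points passed an adjusted p under 0.05, and grey points did not. Bad at -9.87, Casp8 at 9.14 and Bid at -7.53 stand far from the others, and these fitted points depend on the prior count because the genes have few or no counts in 1 group.

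Of the genes grouped here as against death, Bcl2l10 (Diva, or Bcl-B in human), a relative known from oocytes, was the most abundant member in every library. It was 1901, 790 and 918 CPM in Trim-away replicates 1 to 3. It was 445, 1068, 803 and 879 CPM in the Trim21 overexpression libraries and 679 CPM in the non-manipulated library. The groups overlapped, and the log2 fold change was 0.59 (SE 0.38, adjusted p = 0.438). On the scale of CPM per kb of exon, its mean level in the Trim21 overexpression libraries was 655, ahead of Mcl1 at 43.6 and Pmaip1 at 31.6. Its share of all Bcl2 family levels per kb was 98.3%, 90.9% and 90.03% in Trim-away replicates 1 to 3. It was 71.1%, 88.1%, 83.8% and 84.8% in the Trim21 overexpression libraries and 70.7% in the non-manipulated library. The lowest share of the first group lies above the highest of the second. A share also moves with the other genes of the family, and the level of Bcl2l10 itself overlapped between the groups. The difference in share was not tested.

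Mcl1, a short-lived protein that holds Bak1 and Bim, was 13.3, 59.6 and 59.1 CPM in Trim-away replicates 1 to 3. It was 113, 134, 139 and 209 CPM in the Trim21 overexpression libraries and 220 CPM in the non-manipulated library. All 3 libraries labelled Trim-away lay below all others, replicate 1 furthest, and the log2 fold change was -1.76 (SE 0.53, adjusted p = 0.085). Mcl1 thus missed the threshold, and it passed in DESeq2 and in limma on log2(RPKM + 1). Without both libraries low in Trim21 its log2 fold change was -3.51, in the fit where the median of all genes was -1.24. Bcl2l1 (Bcl-xL) ran from 8.11 to 24.2 CPM in the libraries labelled Trim-away and from 3.58 to 19.1 CPM in the Trim21 overexpression libraries (log2 fold change 0.64, adjusted p = 0.787). Bcl2l2 (Bcl-w) stayed at or below 2.06 CPM in every library (adjusted p = 0.988). Bcl2 itself had 402 of its 404 counts in Trim-away replicate 2 and was not tested. The row that carries the symbol Bcl2l2 but is Pabpn1 was 52.0, 166 and 175 CPM against 328, 365, 420 and 580 CPM (log2 fold change -1.69, adjusted p = 0.051), a difference that would be read as Bcl2l2 if rows were taken by symbol alone.

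Of the pore formers, Bax was 3.44, 0.0649 and 7.39 CPM in Trim-away replicates 1 to 3. It was 25.7, 11.6, 10.8 and 7.99 CPM in the Trim21 overexpression libraries and 29.7 CPM in the non-manipulated library. The groups did not overlap, with a gap of less than 1 CPM between the nearest libraries, and the log2 fold change was -1.95 (SE 1.39, adjusted p = 0.502). Bak1 had 38 counts, all in Trim-away replicate 2, and Bok reached at most 5.14 CPM, and neither was tested. The spread of Bax within the libraries labelled Trim-away was as large as its mean, 3.63 ± 3.67 CPM (SD, n = 3).

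None of the 4 tested genes of the apoptosome and of mitochondrial release was called by edgeR or had an unadjusted p under 0.05 in its reported fit. DESeq2 called none of them either. In limma, Diablo had an unadjusted p of 0.041 with voom, 0.028 on log2(RPKM + 0.1) and 0.012 on log2(RPKM + 1). Its adjusted p there was 0.156, 0.130 and 0.069, so it was not called. Apaf1, the scaffold of the apoptosome, was 35.6, 48.7 and 44.4 CPM in Trim-away replicates 1 to 3. It was 53.3, 6.55, 63.8 and 56.6 CPM in the Trim21 overexpression libraries and 83.2 CPM in the non-manipulated library. The groups overlapped, Trim21 overexpression replicate 2 being the lowest of all, and the log2 fold change was -0.07 (SE 0.69, adjusted p = 0.978), with a sign that turned under several alternatives. Diablo (Smac), which frees caspases from the inhibitors of apoptosis, was 0.172, 6.16 and 23.4 CPM in the libraries labelled Trim-away. It was 31.0, 37.0, 23.3 and 42.9 CPM in the Trim21 overexpression libraries and 72.3 CPM in the non-manipulated library, so Trim-away replicate 3 met the lowest of the other group (log2 fold change -1.76, SE 1.18, adjusted p = 0.469). Against Trim-away replicate 1 alone the log2 fold change of Diablo was -7.58, where the median of all genes was -1.24. Of the exon bases of Diablo, 40.9% are shared with other genes.

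Aifm1, a flavoprotein of the mitochondrial intermembrane space, was 45.7, 83.1 and 65.6 CPM in Trim-away replicates 1 to 3. It was 145, 70.3, 87.6 and 131 CPM in the Trim21 overexpression libraries and 138 CPM in the non-manipulated library. The groups overlapped (log2 fold change -0.74, SE 0.38, adjusted p = 0.319). Htra2, a mitochondrial protease, stayed at or below 7.91 CPM (adjusted p = 0.910), and Endog, a mitochondrial nuclease, had 11 counts in all and was not tested.

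Beside the injected groups, the non-manipulated library lay above all 4 Trim21 overexpression libraries in 13 of the 28 tested members (46.4%, against 20.7% of all tested genes) and below all 4 in 2 (7.14%, against 17.1%), the latter being Bik and Ripk1. It is 1 library without a replicate, and no test was run on it. The members above included Bid (173 CPM against 43.4 to 82.5 CPM), Pmaip1 (188 CPM against 73.3 to 122 CPM) and Mcl1 (220 CPM against 113 to 209 CPM). For these 3 genes the order of the levels was non-manipulated, Trim21 overexpression, Trim-away, with no overlap. Bax had the same order (29.7, 7.99 to 25.7 and 0.0649 to 7.39 CPM). Bcl2l13 went the other way, with the libraries labelled Trim-away above the Trim21 overexpression libraries without overlap. In the rest of the 13 the injected groups overlapped, so this order was not general among them.

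Counts of several members stood in a single library. Of the 34 members with at least 30 counts in all, 5 had at least 90% of them in 1 of the 8 libraries (14.7%, against 12.2% of all genes with that many counts). These were Casp4 and Casp9 in Trim-away replicate 1 and Bcl2, Bak1 and Bbc3 in Trim-away replicate 2. Only 18 of the 39 members had a count in every library.

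Of 46 further genes of cell death, 27 were tested, 1 was called higher (3.70%, against 2.98% of all tested genes), 2 were called lower (7.41%, against 3.91%) and 24 did not pass in edgeR. An unadjusted p under 0.05 was found for 6 of the 27 (22.2%, against 21.3%). Cycs, the cytochrome c that Apaf1 binds, was 43.1, 37.8 and 37.1 CPM in the libraries labelled Trim-away and 175, 163, 124 and 241 CPM in the Trim21 overexpression libraries, with no overlap (log2 fold change -2.16, SE 0.33, adjusted p = 0.0090). Bnip3, a mitochondrial protein of the mitophagy pathway, was 25.3, 20.1 and 39.01 CPM against 187, 233, 173 and 267 CPM (a change of -2.93 on the log2 scale, SE 0.36, adjusted p = 0.0055). Vdac2, the mitochondrial channel that holds Bak1, was 470, 369 and 345 CPM against 167, 168, 168 and 205 CPM (a change of 1.16 on the log2 scale, SE 0.22, adjusted p = 0.018). All 3 genes had groups that lay well apart, and Cycs and Bnip3 stayed called without each single library. Vdac2 lost its call without Trim-away replicate 2 or without Trim21 overexpression replicate 1 or 2 (adjusted p = 0.052 to 0.054). Without both libraries low in Trim21, Cycs was at -2.05, in the fit where the median of all genes was -1.24.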

How the data were processed

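RNA of pooled embryos was sequenced as bulk libraries, 3 labelled Trim-away ZP3, 4 Trim21 overexpression and 1 non-manipulated. Nothing in the labels says that pools came from separate matings, so p-values measure only the spread between these libraries. By the processing notes and the paper, the authors used bcl2fastq, FastQC 0.11.9, Trimmomatic, HISAT2 on GRCm38, SAMtools and htseq-count, and deposited raw counts per Ensembl gene with other values (RPKM) computed from them. For htseq-count, no strand setting is given in the sources used here. The paper differs from the labels in the hour of injection and the concentrations. Its results text, a figure legend and its supplement give the sizes of the injected groups the other way round (4 Trim-away and 3 control samples). Which is right cannot be told from the sources used here. The labels were followed.

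The deposited counts were analysed as they are with R 4.3.3 and edgeR 4.0.16: filterByExpr (minimum count 10), TMM, and the quasi-likelihood test of 3 against 4 libraries over 13641 genes with Benjamini-Hochberg adjustment at 0.05. The common biological coefficient of variation was 1.16. The non-manipulated library was outside the fit. Alternatives used DESeq2 1.42.0, limma 3.58.1 (voom, and log2 of the RPKM plus 0.1 or 1), other scalings and filters, a replicate block, and fits without each library or without both libraries low in Trim21. When 1 library was left in a group, it was assumed to vary like the others. Summaries and plots used Python 3.11.15, numpy 2.4.6, pandas 2.3.3 and matplotlib 3.10.9. Positions are those of GENCODE M21.

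With 13228428 to 22427747 counts per library, 3 counts equal 0.126 to 0.258 CPM. Reads carry no molecular identifiers, so such floors cover counting error only. Values per library are given for members that were called, whose groups do not overlap, or whose mean over the injected libraries reached 20 CPM, and the other members are given by ranges. The members and gene lists were chosen with earlier results of these data known.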

Additional observations from a re-analysis of the deposited data

Results flagged for a closer look

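Of the 17 members examined for a library far from the rest of the Trim21 overexpression group, 2 stood out by Dixon's gap test. For normally distributed values chance alone marks about 1 group in 20. Casp8 was 0.307 CPM (5 counts) in Trim21 overexpression replicate 4 and had no counts in the other 3 libraries of the group. The test marks every group with counts in only 1 library, so the mark on Casp8 carries no information. Pmaip1 was 122 CPM in Trim21 overexpression replicate 1 and 73.3 to 75.1 CPM in the other 3. What sets these libraries apart was not tested.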

How the results depend on the processing

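Apart from Apaf1, the log2 fold changes of all 20 named genes (17 members and Bnip3, Cycs and Vdac2) kept their direction under every alternative run. That of Apaf1, -0.07 as reported, was 0.38 in limma-voom, 0.11 in limma on log2(RPKM + 0.1), 0.48 with the replicate block and up to 0.15 when 1 library was left out (0.04 without Trim-away replicate 1, and 0.02, 0.15 and 0.07 without Trim21 overexpression replicates 1, 3 and 4, against a lowest value of -0.43 without replicate 2), with an adjusted p of at least 0.658 throughout.

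The 3 members called higher became 1 (Cflar) in limma on log2(RPKM + 0.1) and 0 to 1 when 1 library was left out. The 2 called lower became 1 (Bid) with no filter and 1 when any library was left out. DESeq2 called 4 higher (Bcl2l13, Birc3, Cflar and Ripk1) and 3 lower (Bad, Bid and Mcl1), edgeR with library size alone lost Cflar (adjusted p = 0.051), and limma on log2(RPKM + 1) lost Casp8 and Bad and called Mcl1. Over all genes, the 407 called higher became 1275 in DESeq2, 723 in limma-voom and 170 to 261 without 1 library. The 534 called lower became 1636 in DESeq2, 1072 in limma on log2(RPKM + 1), 935 without both libraries low in Trim21 and 236 to 472 without 1 library. Of the further cell death genes, the 1 called higher became 3 in DESeq2, 2 in limma-voom, 0 and 2 in limma with 0.1 and 1 added to the RPKM, and 0 to 1 without 1 library. The 2 called lower remained 2 in number without any single library. The causes of these changes were not tested.

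With the replicate block on replicates 1 to 3 of each group, 0 members were called higher and 0 lower by edgeR (4 and 3 at an unadjusted p under 0.05), and 0 genes of all tested in either direction, nor any further cell death gene (0 higher and 0 lower). Deviations of libraries with the same number correlated at -0.062, 0.0063 and -0.00052, so the numbers do not pair the libraries.

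The 11 untested members have too few counts, or counts in too few libraries, for a test. With a coefficient of variation of 1.16 a missed threshold does not show equal levels.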
